A study of Mus musculus with 9 samples.

Results

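The genes described here form the cardiac natriuretic peptide system: the peptide hormone genes Nppa, Nppb and Nppc, the 3 receptor genes Npr1, Npr2 and Npr3, and Corin, the gene of the protease that cuts the atrial peptide precursor. They were picked by symbol, and all 7 were found among the 55401 rows of the gene table, each in a single row. Of these, 6 had enough reads to be tested and Nppc did not. The data are read counts from total RNA of mouse hearts, in 3 groups of 3 libraries.

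Control hearts came from wild-type mice, labelled control where the design text speaks of a sham operation. TAC hearts, also wild type, had undergone transverse aortic constriction, in which a suture narrows the aorta so that the left ventricle pumps against a raised pressure, and are titled 12 weeks. KO-TAC hearts, also titled 12 weeks, came from constricted mice with 2 floxed copies of c-Myc and a tamoxifen-inducible Cre (MerCreMer) driven by Tcf21, a gene active in cardiac fibroblasts. Operated mice were male and 8 to 12 weeks old. Tamoxifen is described at 45 mg/kg for 5 days for the knockout line, and no label says whether the wild-type mice received it. A knockout group without constriction and a Cre group with intact c-Myc were not analysed here, so effects of Cre and tamoxifen cannot be told apart from those of c-Myc loss. The labels number the hearts without saying that each is a separate animal. If they are not, the p-values set the group differences against a spread that may be in part technical. They would then not speak for mice beyond these samples.

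As background, cardiac muscle cells make and secrete the atrial peptide (encoded by Nppa) and the brain-type peptide (encoded by Nppb), and stretch of the wall raises their synthesis, which is why both serve as markers of a loaded heart. The peptides bind NPR-A, the product of Npr1, a membrane guanylyl cyclase that makes cyclic GMP, relaxes vessels, promotes salt loss and restrains muscle cell growth. The C-type peptide (Nppc), made mainly by endothelium, acts through a second cyclase, NPR-B (Npr2). NPR-C (Npr3) has no cyclase domain and removes peptides from the circulation. Corin is a membrane protease of cardiac muscle cells that converts the atrial precursor into the active hormone.

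Nppb (ENSMUSG00000029019, chr4:147985788-147987205, plus strand) and Nppa (ENSMUSG00000041616, chr4:148000722-148002079, plus strand) are neighbours separated by 13516 bases, each with 3 exons, in the GENCODE annotation of GRCm38, the build the submitters name. Clcn6, a chloride transporter gene on the minus strand, lies 2179 bases beyond Nppa. Corin (ENSMUSG00000005220) spans 204449 bases of chr5:72300025-72504473 on the minus strand. Npr1 (ENSMUSG00000027931) lies at chr3:90450591-90465866 on the minus strand, Npr2 (ENSMUSG00000028469) at chr4:43631935-43651244 on the plus strand, Npr3 (ENSMUSG00000022206) at chr15:11839896-11907287 on the minus strand and Nppc (ENSMUSG00000026241) at chr1:86666291-86670571 on the minus strand.

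The promoters of Nppa and Nppb are shown because these are the members that were higher in every constricted heart. RefSeq promoter windows (GRCm38.p6) were found for all 7 members, and the first 250 bases of each, those before the RefSeq start, were searched on both strands for GATA, the core of the GATA factor site, for CATTCC (the MCAT element of TEAD factors), for AAGTG (a core of the NKX2-5 site), for TGANTCA (the AP-1 site), for the CArG box of SRF and for TATAAA (the TATA box). Capitals mark the matches, in either orientation.
Nppa, chr4:148000472-148000721, plus strand: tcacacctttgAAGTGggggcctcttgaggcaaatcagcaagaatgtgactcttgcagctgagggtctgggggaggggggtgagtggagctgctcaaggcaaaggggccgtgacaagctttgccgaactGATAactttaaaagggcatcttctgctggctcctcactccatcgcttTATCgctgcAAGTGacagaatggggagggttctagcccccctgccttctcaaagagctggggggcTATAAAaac
Nppb, chr4:147985795-147985824, plus strand: GGAATGcagctGATAaatcagaGATAaccc
The Nppa window held 2 GATA matches, 121 and 74 bases before the annotated start, 2 AAGTG matches, at 239 and 65 bases, and TATAAA at 9 bases. The 30 Nppb bases hold the CATTCC match (read on the opposite strand, 105 bases before the RefSeq start) and 2 GATA matches at 94 and 83 bases. TATAAA lies at 31 bases in Nppb, outside the bases shown. GENCODE places the start of Nppb further upstream than this RefSeq window does, so the 30 bases lie inside the GENCODE first exon.

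Of 32851 RefSeq windows of the same length, 53.6% held GATA, 40.7% AAGTG, 12.6% CATTCC, 12.4% TATAAA, 6.75% TGANTCA and 1.47% a CArG box. In the windows of Npr1, Npr2, Npr3 and Corin none of the 6 motifs was found, and Nppc had TATAAA alone. A match shows that these letters are present and nothing about binding.

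Total counts per library were 59702513 to 109162107. The 3 TAC hearts were unlike one another, and TAC replicate 3 was far from all others. A summed level of 10 ventricular muscle genes (Myh6, Tnnt2 and others, all detected in every heart) was 78618 to 81026 CPM in control hearts, 45061 to 75709 CPM in KO-TAC hearts, and 44011, 88207 and 14557 CPM in TAC replicates 1, 2 and 3. CPM here are library-size scaled counts (counts per 1e6 reads, with TMM factors). The muscle genes were divided in TAC replicate 2. Actc1 was at 10155 CPM there against 5653 to 6464 CPM in control hearts. Myl2, Myl3, Tnnt2, Tnni3 and Mybpc3 were also above every control heart. Ryr2, at 1032 CPM against 1184 to 1606 CPM, and Atp2a2 were below every control heart, and Myh6 and Ttn were within the control range. In bulk heart RNA, fewer cells of a type and less RNA per cell cannot be told apart. The targeted gene Myc was at 2.15, 2.47 and 1.55 CPM in control, 8.93, 6.22 and 14.2 CPM under TAC and 4.22, 1.87 and 4.75 CPM among KO-TAC replicates 1, 2 and 3. All KO-TAC values lay below all TAC values, although the difference did not pass the test (log2 difference -1.44, edgeR adjusted p = 0.56, 0.031 to 0.98 over 21 alternatives), and cells without Cre also contribute Myc transcripts.

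Comparison of TAC with control asked how pressure overload moved the system in wild-type hearts. Both peptide genes and the receptor gene Npr1 were higher in every TAC heart than in any control heart, and the other receptor genes and Corin had overlapping ranges. None of the 6 tested members passed the edgeR quasi-likelihood test over all genes (adjusted p = 0.13 to 0.55), in which 0% of 19051 genes passed, while 3 of the 6 members and 21.3% of all genes had an unadjusted p under 0.05. DESeq2 called 3 of 6 members, Nppa, Nppb and Npr1, all higher, beside 7.61% of all genes called and 5.01% called higher. Limma-voom with quality weights called 4 of 6, Corin being the other, beside 38% of all genes. The 3 members whose ranges were separate, all of them higher in TAC, compare with 28.1% of all genes separate and 14.1% separate and higher.

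Nppa was counted at 128, 59.4 and 141 CPM in control replicates 1, 2 and 3, at 1245, 385 and 1120.0 CPM in TAC replicates 1, 2 and 3, and at 1295, 740.3 and 312 CPM in KO-TAC replicates 1, 2 and 3. The lowest loaded heart was well above the highest control heart, and TAC and KO-TAC hearts covered much the same range. The TAC mean was 917 ± 464 CPM against 109 ± 43.7 CPM in control hearts (SD, n = 3 each). The edgeR fold was 8.38 (95% interval 3.07 to 22.9; log2 difference 3.07, SE 0.65), with adjusted p = 0.13 by edgeR and 2.98e-05 by DESeq2 (2.98e-05 to 0.40 over 21 alternatives). With each heart left out in turn the fold was 6.80 to 10.8. Nppa reads made up 0.00549% to 0.013% of a control library, 0.118%, 0.0331% and 0.162% of TAC replicates 1, 2 and 3, and 0.161%, 0.0746% and 0.0289% of KO-TAC replicates 1, 2 and 3.

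Nppb, the gene of the brain-type peptide, was counted at 133, 35.5 and 86.9 CPM in control replicates 1, 2 and 3, at 371, 387 and 205 CPM in TAC, and at 269, 406 and 353 CPM in KO-TAC. Again no loaded heart overlapped a control heart, and control replicate 2 was the lowest of all hearts for both peptide genes. The TAC mean was 321 ± 101 CPM against 85.2 ± 49.0 CPM in control hearts. The edgeR fold was 3.77 (95% interval 1.81 to 7.83; log2 difference 1.91, SE 0.47), with adjusted p = 0.14 by edgeR and 0.0021 by DESeq2 (0.0021 to 0.40 over 21 alternatives). Within the TAC group the hearts ranked differently for the peptide genes: replicate 2, lowest for Nppa, was highest for Nppb.

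KO-TAC hearts were compared with TAC hearts to ask whether c-Myc deletion in fibroblasts changed the response to load. For the peptide genes no difference was detectable. The Nppa mean was 783 ± 493 CPM in KO-TAC and 917 ± 464 CPM in TAC hearts, a fold of 0.854 (95% interval 0.337 to 2.16; edgeR adjusted p = 0.91). Its sign turned without TAC replicate 1 (log2 difference 0.06) and without KO-TAC replicate 3 (0.15). The Nppb mean was 343 ± 69.2 against 321 ± 101 CPM, a fold of 1.07 (95% interval 0.527 to 2.16; edgeR adjusted p = 0.95), and its sign turned without TAC replicate 3 (-0.14) or KO-TAC replicate 2 (-0.04). The intervals reach from 2.96-fold lower to 2.16-fold higher for Nppa and from 1.90-fold lower to 2.16-fold higher for Nppb, so the groups are not shown to be alike. None of the 6 members passed edgeR or DESeq2 in this comparison, with 0% and 0.869% of all genes called, nor limma-voom, with 5.23%, and 1 of the 6 (Npr1) had an unadjusted p under 0.05, beside 7.45% of all genes. Of the 6 members, 0 had separate ranges, beside 9.96% of all genes.

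KO-TAC hearts were also compared with control hearts, the same control samples as above. Nppa was 7.16-fold higher in KO-TAC than in control hearts (95% interval 2.65 to 19.3; edgeR adjusted p = 0.69, DESeq2 0.00052, 0.00052 to 1 over 21 alternatives) and Nppb 4.02-fold higher (1.93 to 8.37; 0.77 by edgeR, 0.0047 by DESeq2, 0.0047 to 1 over 21 alternatives). Nppa, Nppb and Corin were the 3 of 6 members whose ranges were separate in this comparison, beside 26.5% of all genes. None passed edgeR, where 0% of all genes did, and 2 of 6 and 5.76% of all genes had an unadjusted p under 0.05. DESeq2 called the 2 peptide genes, both higher, beside 0.386% of all genes called and 0.27% called higher. Limma-voom called these 2 and Corin, beside 5.2% of all genes. Of all genes, 12.9% were separate and higher and 13.6% separate and lower.

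**Figure D1:**
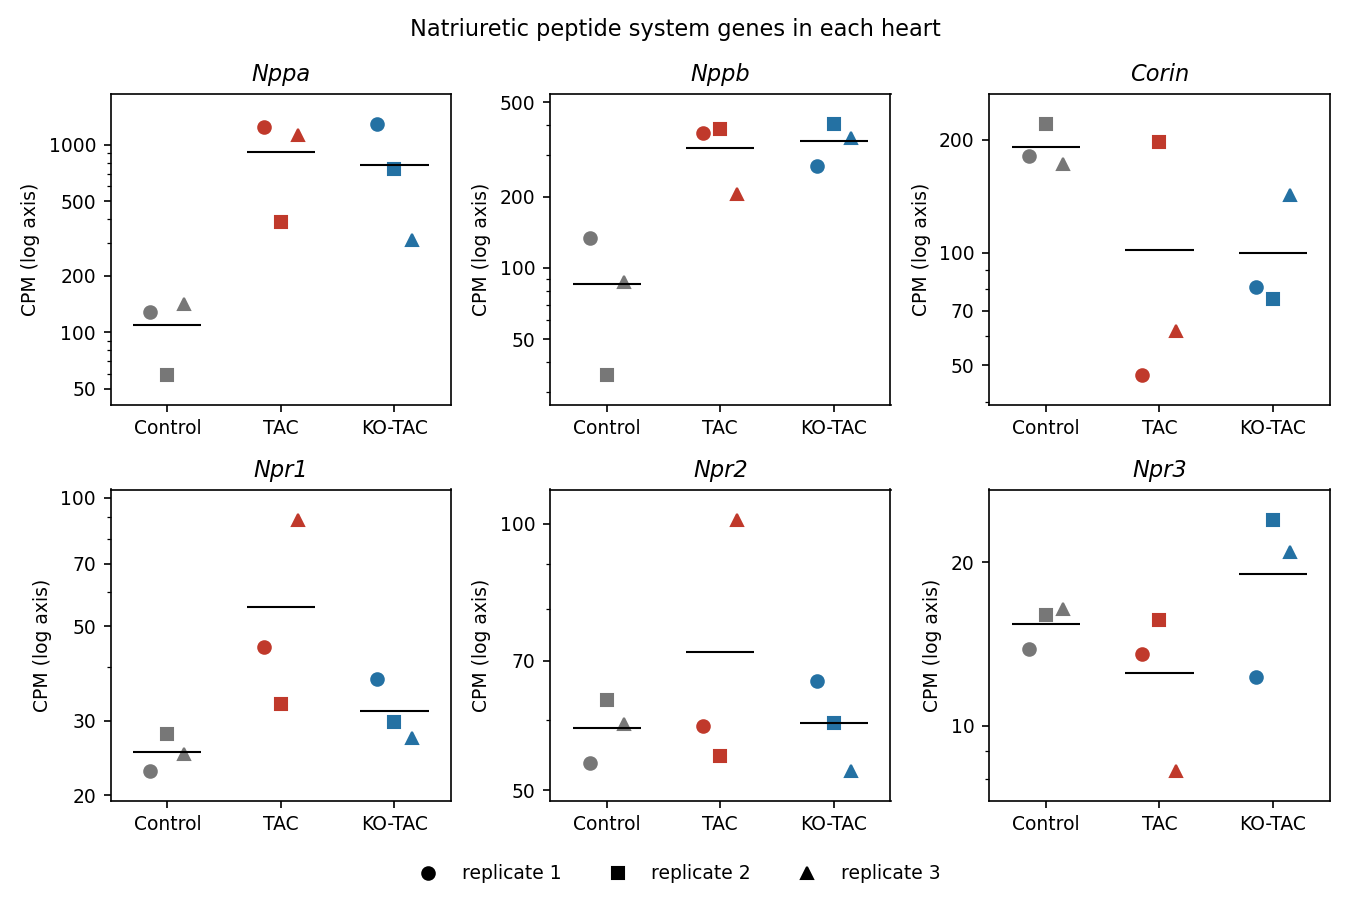
Level of each tested member in every heart, in CPM on a log axis whose range differs between panels. Symbols mark the replicates and the horizontal line the group mean. For Nppa and Nppb all 6 loaded hearts lie above the 3 control hearts, and for Corin TAC replicate 2, at 197 CPM, lies among the control hearts.

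Corin, the protease gene, ran the other way in most loaded hearts. It was at 182, 221 and 173 CPM in control replicates 1, 2 and 3, at 47.2, 197 and 61.6 CPM in TAC, and at 80.9, 75.3 and 143 CPM in KO-TAC. TAC replicates 1 and 3 and all KO-TAC hearts were below every control heart, and TAC replicate 2 was within the control range. The fitted TAC level was 1.88-fold lower than control (log2 difference -0.91, SE 0.51, 95% interval -2.05 to 0.23; edgeR adjusted p = 0.31). Without TAC replicate 2 it was 3.54-fold lower and passed (edgeR adjusted p = 0.011; 0.0013 to 0.93 over 21 alternatives), in a fit that called 4 of 6 members and 27.5% of all genes. The KO-TAC level was 1.92-fold lower than control (-0.94, SE 0.51; edgeR adjusted p = 0.85, DESeq2 0.72).

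Between KO-TAC and TAC hearts, Corin differed by -0.03 on the log2 scale (95% interval -1.16 to 1.10; edgeR adjusted p = 0.99), and without TAC replicate 2 by 0.88 (adjusted p = 0.12; range over 21 alternatives 0.12 to 1). Corin is expressed in cardiac muscle cells, so its level is given beside that of the ventricular muscle genes. The fitted level of all 10 of these was lower in TAC than in control (median log2 difference -0.34). The median of the list relative to control was -0.52, 0.24 and -2.46 in TAC replicates 1, 2 and 3 and -0.44, -0.04 and -0.01 in KO-TAC replicates 1, 2 and 3. Per 1000 CPM of summed ventricular muscle transcripts, Corin was at 2.2 to 2.79 CPM in control, at 1.07, 2.23 and 4.23 CPM in TAC replicates 1, 2 and 3, and at 1.80, 1.12 and 1.89 CPM in KO-TAC replicates 1, 2 and 3. On this measure TAC replicate 1 and all 3 KO-TAC hearts were below the control range, while TAC replicate 3 was above it. KO-TAC replicate 2, with the lowest Corin CPM of its group, had a muscle median near control. Its summed level of 66998 CPM was below every control heart. Atp2a2 was at 5742 CPM against 12359 to 13447 CPM in control hearts, and Myh6, Ttn and Ryr2 were also below every control heart. Myl2 was at 6197 CPM against 5236 to 5570 CPM, and Myl3, Actc1 and Mybpc3 were also above every control heart. Tnnt2 and Tnni3 were within the control range. With library factors taken from the muscle list the TAC difference from control was 0.06 on the log2 scale in place of -0.91. These factors, like the sum, weigh list genes by abundance, Myh6 and Atp2a2 most in control hearts. In TAC replicate 1 Myh6 was at 13686 CPM against 33377 to 33674 CPM in control hearts, and Atp2a2 at 2370 CPM. Myl2, at 6661 CPM, was above every control heart there, Myl3 was within the control range and the other list genes were below it. The part of muscle content in the Corin values was not tested further.

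On the same scale, Nppa was at 0.749 to 1.79 CPM per 1000 CPM of muscle transcripts in control, 28.3, 4.37 and 76.9 in TAC replicates 1, 2 and 3, and 28.7, 11.05 and 4.12 in KO-TAC replicates 1, 2 and 3. Nppb was at 0.447 to 1.65 in control hearts, 4.39 to 14.1 under TAC and 4.67 to 6.06 under KO-TAC. The divisor was below every control heart in 5 of the 6 loaded hearts, which raises these ratios there, and above them in TAC replicate 2.

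Nppa is also a gene of atrial muscle, so atrial markers were examined. Sln, the sarcolipin gene of mouse atria, had no read in 8 of 9 libraries and reached 0.585 CPM in TAC replicate 1. Myl7, the atrial regulatory light chain, was at 0 to 0.758 CPM and Bmp10 at 0 to 0.309 CPM. Myl4, the atrial essential light chain, was counted in all 9 libraries, at 0.956 to 3.61 CPM with the highest value in TAC replicate 1. The whole list of 8 atrial markers had a summed level of 34.6 to 43.2 CPM in control hearts, 56.7 to 100.3 CPM under TAC and 29.2 to 48.8 CPM under KO-TAC, and the TAC mean exceeded control for all 7 tested genes (median log2 difference 0.71). Kcna5, a potassium channel gene, contributed 10.9 to 64.8 CPM to that sum and Nr2f2, also a gene of vein endothelium, 8.17 to 19.5 CPM.

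**Figure D2:**
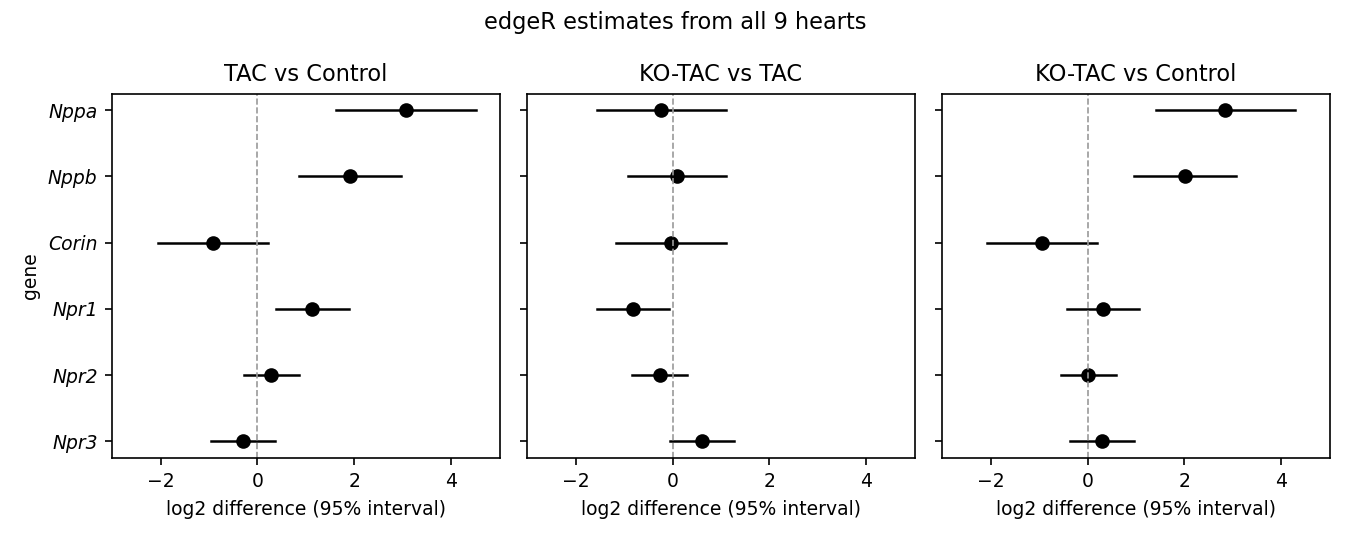
Log2 difference of each tested member in the 3 comparisons, from the edgeR fit to 9 hearts, with 95% intervals as lines. The intervals of Nppa, Nppb and Npr1 lie above 0 in TAC against control before adjustment over all genes, and those of Nppb, Corin and Nppa are centred within 0.23 of 0 in KO-TAC against TAC, where the signs of these 3 genes turn under some alternatives.

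Npr1, the receptor gene for both heart peptides, was at 22.9, 28.0 and 25.1 CPM in control replicates 1, 2 and 3, at 44.7, 32.9 and 89.0 CPM in TAC, and at 37.7, 29.8 and 27.2 CPM in KO-TAC. Every TAC heart was above every control heart, and TAC replicate 3 stood far above the rest. The TAC level was 2.19-fold higher than control (95% interval 1.30 to 3.69; edgeR adjusted p = 0.15, DESeq2 0.038, 0.0024 to 0.40 over 21 alternatives), and 1.52-fold higher without TAC replicate 3. KO-TAC hearts were 1.76-fold lower than TAC hearts (log2 difference -0.81, SE 0.33, 95% interval -1.56 to -0.07) with an edgeR adjusted p of 0.66, and 1.22-fold lower without TAC replicate 3. KO-TAC and control ranges overlapped (1.25-fold, 0.745 to 2.09; edgeR adjusted p = 0.89).

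Endothelial transcripts are given beside Npr1. All 8 endothelial markers were detected in every library, 7 of 8 were higher in TAC than in control (median log2 difference 0.66) and 7 of 8 lower in KO-TAC than in TAC (-0.50). Their summed level was 1302 to 1412 CPM in control, 2435, 1555 and 3460.0 CPM in TAC replicates 1, 2 and 3, and 1383 to 1594 CPM in KO-TAC hearts. Per 1000 CPM of this sum, Npr1 was at 17.6 to 20.6 CPM in control hearts, 18.4 to 25.7 CPM under TAC and 18.3 to 23.6 CPM under KO-TAC. On this scale the 3 groups overlapped, but the sum leans on its most abundant genes. In TAC replicate 3 most of it came from Fabp4 at 1472 CPM and Aqp1 at 865 CPM. Their highest control values were 454 and 256 CPM. Npr1 was not set against the other markers alone. The median of the endothelial list relative to control was 0.83, -0.06 and 0.95 in TAC replicates 1, 2 and 3, so that TAC replicate 2 had no raised median while its Npr1 was above every control heart. The list genes were divided in that heart. Aqp1, a water channel gene, was at 445 CPM against 193 to 256 CPM in control hearts, and Fabp4 and Pecam1 were also above every control heart. Kdr was at 127 CPM against 210 to 216 CPM, and Cdh5, Tek and Emcn were also below every control heart. Tie1 was within the control range. The part of endothelial content in the Npr1 values was not tested further.

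**Figure D3:**
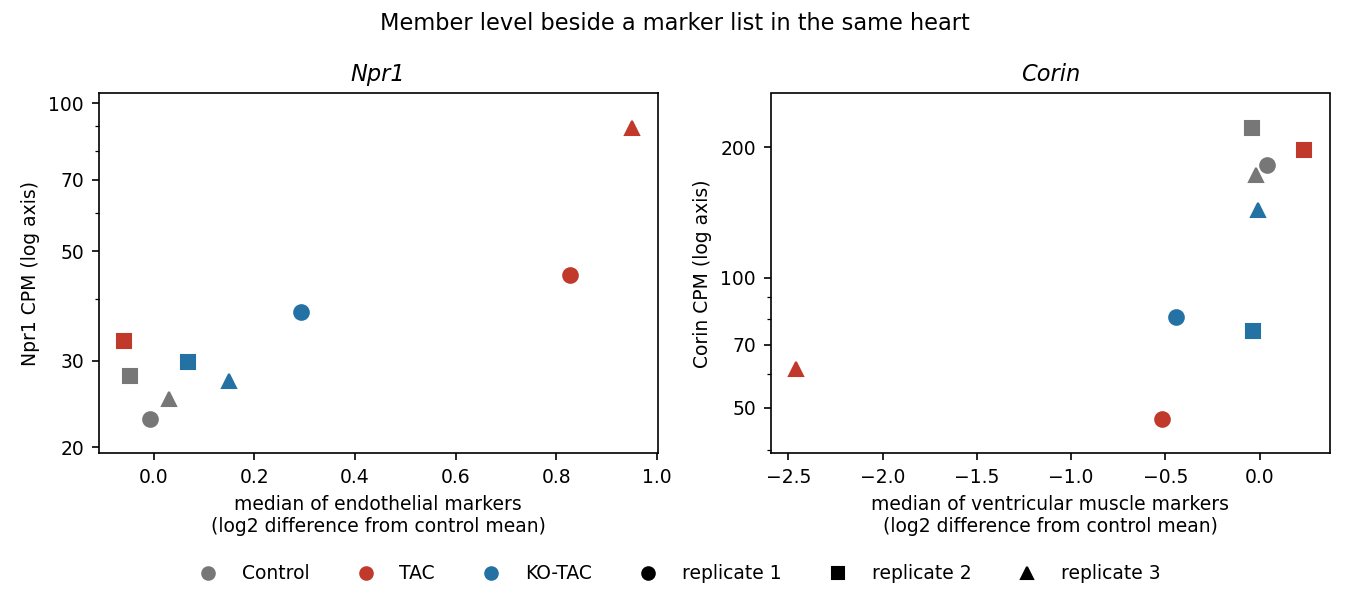
Npr1 beside the median of endothelial markers, and Corin beside the median of ventricular muscle markers, in each of 9 hearts (CPM on a log axis; marker medians as log2 differences from the control mean). TAC replicate 3 has both the highest Npr1, 89.0 CPM, and the highest endothelial median, 0.95. KO-TAC replicate 2 has low Corin, 75.3 CPM, at a muscle median of -0.04. Its summed muscle level is below control, with single muscle genes on both sides of the control range.

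Npr2, the receptor gene for the C-type peptide, was the steadiest member. It was at 53.7, 63.2 and 59.5 CPM in control replicates 1, 2 and 3, at 59.0, 54.7 and 101 CPM in TAC, and at 66.5, 59.6 and 52.6 CPM in KO-TAC. Only TAC replicate 3 lay outside a range of 52.6 to 66.5 CPM. The fold of TAC over control was 1.22 (95% interval 0.821 to 1.81; edgeR adjusted p = 0.51) and its sign turned without TAC replicate 3 (log2 difference -0.06). The fold of KO-TAC over TAC was 0.832 (0.561 to 1.23; edgeR adjusted p = 0.77), turning to a log2 difference of 0.08 without that heart, and KO-TAC over control was 1.01 (0.683 to 1.5; adjusted p = 0.99), with a sign that depended on the setting.

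Npr3, the clearance receptor gene, was the lowest of the 3 receptor genes. It was at 13.9, 16.0 and 16.4 CPM in control replicates 1, 2 and 3, at 13.6, 15.7 and 8.27 CPM in TAC, and at 12.3, 24.0 and 20.9 CPM in KO-TAC. TAC replicate 3 had the lowest value and KO-TAC replicates 2 and 3 the highest, and the ranges of all 3 groups overlapped. KO-TAC hearts stood 0.61 above TAC hearts on the log2 scale (SE 0.29, 95% interval -0.05 to 1.27; edgeR adjusted p = 0.67) and -0.22 with library factors from the muscle list. That of TAC from control was -0.30 (-0.96 to 0.36; adjusted p = 0.55), or 0.86 with the muscle factors, and that of KO-TAC from control was 0.30 (-0.35 to 0.96; adjusted p = 0.89). Npr3 is a known transcript of endocardium, and 6 endocardial markers, all detected in every heart, were examined. They summed to 268 to 296 CPM in control hearts, 216 to 322 CPM under TAC and 228 to 306 CPM under KO-TAC. TAC replicate 3 had the lowest sum but the highest median of the list (0.88 on the log2 scale from control). Cpe made up most of the control sum, at 195 to 202 CPM, and was at 46.0 CPM in TAC replicate 3. Cytl1, Plvap, Vwf and Nfatc1 were highest in that heart and Tmem108 lowest.

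Nppc, the C-type peptide gene, was hardly seen. It had 0 reads in 8 libraries and 3 reads in TAC replicate 1, or 0.0399 CPM. A count of 0 allows up to 3 reads, that is 0.0221 CPM in KO-TAC replicate 1, the deepest library, to 0.0468 CPM in TAC replicate 2, for counting error only. No comparison was possible at this depth.

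Levels of different genes were compared per length, as RPKM (CPM per kilobase of merged exons). In control hearts Nppa stood at 126 ± 50.5 and Nppb at 109 ± 62.7 RPKM, with overlapping ranges. Corin followed at 35.5 ± 4.77, Npr2 at 12.6 ± 1.02, Npr1 at 5.29 ± 0.531 and Npr3 at 1.64 ± 0.146 RPKM, each range separate from its neighbours. In TAC hearts the order of means was the same, Nppa at 1059.8 ± 537 and Nppb at 411 ± 129 RPKM with overlapping ranges, while Corin (8.75 to 36.5 RPKM), Npr2 (11.7 to 21.7 RPKM) and Npr1 (6.87 to 18.6 RPKM) overlapped one another. In KO-TAC hearts Nppa (361 to 1497 RPKM) and Nppb (344 to 520 RPKM) overlapped, as did Corin (13.9 to 26.5 RPKM) and Npr2 (11.3 to 14.2 RPKM).

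Ratios of RPKM within a heart do not depend on how libraries are scaled and are given as a description. The ratio of Nppa to Nppb was 0.867, 1.51 and 1.46 in control replicates 1, 2 and 3, 3.03, 0.898 and 4.92 in TAC, and 4.35, 1.65 and 0.797 in KO-TAC. The ratio was above every control heart in TAC replicates 1 and 3 and in KO-TAC replicates 1 and 2, within the control range in TAC replicate 2, and below it in KO-TAC replicate 3. Corin per 1000 Nppa was 227, 596 and 197 in control, 6.08, 81.9 and 8.81 in TAC, and 10.005, 16.3 and 73.4 in KO-TAC replicates 1, 2 and 3. Every loaded heart was below every control heart in this ratio of protease to precursor transcripts. Nppa alone already separated these hearts, so the ratio in part restates the Nppa values. In TAC replicate 2 Corin itself, at 197 CPM, was within the control range.

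Among receptor transcripts, Npr2 made up 64.2% to 64.8% of the summed RPKM of the 3 genes in control hearts, Npr1 26.6% to 27.7% and Npr3 8.10% to 8.85%. In TAC replicates 1, 2 and 3 the Npr1 share was 39.9%, 33.9% and 45.2%, and in KO-TAC replicates 33.6%, 28.9% and 29.7%, so that all 6 loaded hearts were above the control range. The Npr2 share was 52.6% to 57.8% under TAC and 58.7% to 60.8% under KO-TAC, below control in all 6. The ratio of Npr1 to Npr3, cyclase receptor to clearance receptor, was 3.24, 3.42 and 3.002 in control, 6.46, 4.12 and 21.1 in TAC, and 5.999, 2.44 and 2.56 in KO-TAC replicates 1, 2 and 3. All TAC hearts were above the control range, and KO-TAC hearts lay on both sides of it. The ratio of Npr2 to Npr3 was 7.30 to 7.93 in control hearts, 7.01 to 24.6 under TAC and 5.00 to 10.9 under KO-TAC.

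**Figure D4:**
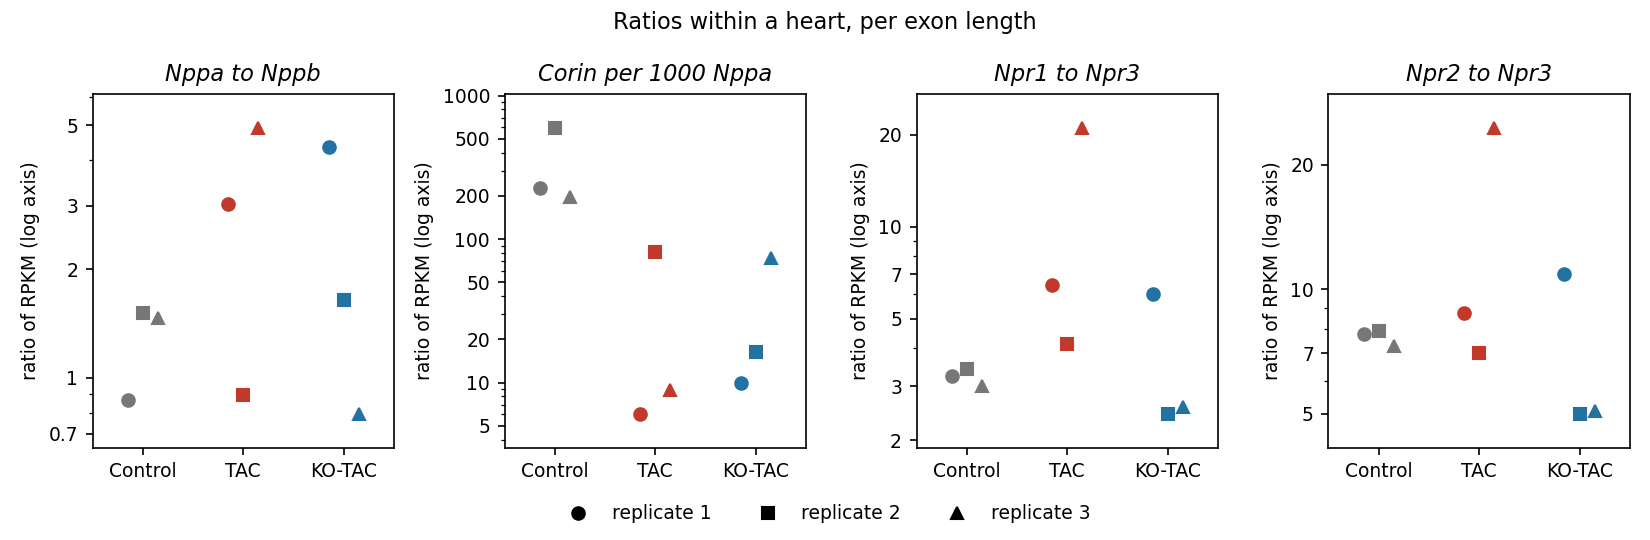
Ratios of RPKM between members within each heart, on log axes whose range differs between panels. All 6 loaded hearts have less Corin per Nppa than the 3 control hearts (at most 81.9 per 1000 against at least 197), a separation that Nppa alone also shows. TAC replicate 3 has the highest ratio of either cyclase receptor to Npr3.

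The rest of the pathway was described from 4 lists with 40 genes, of which 39 were tested. None passed edgeR in any comparison. In TAC against control 14 were higher and 25 lower (median log2 difference -0.35, against 0.03 over all genes), 14 had an unadjusted p under 0.05 (21.3% of all genes did) and DESeq2 called 1 higher and 2 lower (7.61% of all genes). In KO-TAC against TAC 23 were higher and 16 lower, 2 had an unadjusted p under 0.05 (7.45% of all genes) and DESeq2 called 0 (0.869%). In KO-TAC against control 12 were higher and 27 lower, 4 had an unadjusted p under 0.05 (5.76% of all genes) and DESeq2 called 0 (0.386%). Ranges were separate for 16, 4 and 13 of the 39 in these 3 comparisons, beside 28.1%, 9.96% and 26.5% of all genes.

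Of the peptide-cutting and clearing enzymes, Mme, the gene of neprilysin, which degrades natriuretic peptides, was at 3.28 ± 2.64 CPM in TAC, 7.38 ± 4.09 CPM in KO-TAC and 9.45 ± 0.433 CPM in control hearts. The TAC value was 2.89-fold below control (edgeR adjusted p = 0.25) with separate ranges, as for 28.1% of all genes. Ide, insulin-degrading enzyme, was at 41.7 ± 19.8 CPM in TAC and 74.4 ± 1.58 CPM in control hearts (1.78-fold lower, adjusted p = 0.22). Furin, the convertase of the brain-type and C-type precursors, was at 74.1 ± 33.3 CPM in TAC and 75.9 ± 4.93 CPM in control, and Pcsk6, the convertase that activates corin, at 66.3 ± 19.9 and 65.0 ± 5.92 CPM (adjusted p = 0.96 for each). Dpp4, a peptidase gene, was near 3 CPM in all groups. Ostn, the gene of osteocrin, a ligand of the clearance receptor, had reads in 2 of 9 libraries and was not tested.

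Among 18 genes of cyclic GMP synthesis, effect and breakdown, 9 were higher and 9 lower in TAC than in control. Nos3, endothelial nitric oxide synthase, was at 88.8 ± 57.9 CPM under TAC against 34.6 ± 0.484 CPM in control hearts (2.57-fold; edgeR adjusted p = 0.14, DESeq2 0.025) and at 45.0 ± 2.38 CPM in KO-TAC hearts. It is an endothelial gene. In TAC replicate 2 it was at 40.4 CPM, above the control range of 34.0 to 35.0 CPM. The endothelial median in that heart was -0.06, and the endothelial sum was 1555 CPM against 1302 to 1412 CPM in control hearts. The part of endothelial content in the Nos3 values was not tested. Pde3a, a phosphodiesterase inhibited by cyclic GMP, was at 34.3 ± 34.2 against 107 ± 8.55 CPM (3.13-fold lower, adjusted p = 0.20), Pde1c at 21.0 ± 18.6 against 51.8 ± 8.00 CPM (2.47-fold lower, 0.20) and Pde9a, a cyclic GMP phosphodiesterase, at 7.27 ± 6.61 against 2.29 ± 0.302 CPM (3.17-fold higher, 0.20). In KO-TAC hearts Pde3a was at 54.6 ± 24.0, Pde1c at 26.9 ± 0.917 and Pde9a at 3.96 ± 1.29 CPM, between the TAC and control means for each. Rgs2, a regulator of G protein signalling, was at 10.1 ± 7.33 CPM in KO-TAC and 24.1 ± 7.97 CPM in control hearts (2.39-fold lower, adjusted p = 0.85), and Rgs4 at 12.6 ± 3.61 CPM in KO-TAC and 17.5 ± 0.227 CPM in TAC hearts (1.39-fold lower, adjusted p = 0.67).

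Of 11 cardiac transcription factors known to act on the peptide promoters, 10 were lower in TAC than in control hearts, in which Nppa and Nppb were higher. The median log2 difference was -0.84. Mef2a was at 105 ± 23.3 against 190 ± 4.14 CPM (1.81-fold lower; edgeR adjusted p = 0.14, DESeq2 0.0081) and Tbx5 at 8.17 ± 5.28 against 26.1 ± 4.05 CPM (3.20-fold lower; 0.14 and 0.014). Gata4, whose family's core motif is present in both windows shown above, was at 44.0 ± 28.0 against 99.2 ± 4.06 CPM (2.25-fold lower, adjusted p = 0.21), Myocd at 13.7 ± 14.1 against 43.1 ± 4.67 CPM (3.14-fold lower, 0.19) and Mef2c at 39.0 ± 17.2 against 69.6 ± 5.94 CPM (1.78-fold lower, 0.17). In KO-TAC hearts 10 of the 11 were also below control (median -0.37), with Mef2a at 120 ± 18.5, Tbx5 at 11.4 ± 3.88 and Gata6 at 26.5 ± 3.19 CPM (control 45.3 ± 1.5). These are largely genes of cardiac muscle cells, and the fitted TAC level of all 10 ventricular muscle markers was lower too. In TAC replicate 2 the muscle sum of 88207 CPM was above every control heart, with single muscle genes on both sides of the control range. In that heart Mef2a was at 131 CPM against 187 to 194 CPM in control hearts, and Tbx5 at 13.5 against 23.1 to 30.7 CPM. Gata4, Gata6, Myocd and Mef2c were also below every control heart there, while Nkx2-5, Srf and Hand2 were above. Tbx20 was within the control range. Tead1 was at 5.49 CPM in that heart, 75.4 and 66.6 CPM in TAC replicates 1 and 3, and 134 to 190 CPM in control hearts. The part of muscle content in these values was not tested.

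Genes next to the peptide genes were examined for the same comparisons. Clcn6, next to Nppa, was at 12.1 ± 0.456 CPM in control hearts, 12.3 ± 5.84 CPM under TAC and 13.1 ± 0.640 CPM under KO-TAC (1.01-fold and 1.08-fold of control; edgeR adjusted p = 0.98 and 0.96). Plod1, a collagen lysyl hydroxylase gene of the region, was at 74.4 ± 3.69 CPM in control hearts, 111 ± 24.2 CPM under TAC and 73.3 ± 4.55 CPM under KO-TAC, with TAC separate from both other groups (adjusted p = 0.18 and 0.65). Of all genes, 28.1% were separate between TAC and control and 9.96% between KO-TAC and TAC.

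Gm13054, an antisense gene model on the minus strand at chr4:148001091-148004014 (ENSMUSG00000086806), overlaps Nppa and was examined after its values were seen. Of its 820 exon bases 532 (64.9%) lie over Nppa exons. It was at 0.401, 0.0766 and 0.323 CPM in control replicates 1, 2 and 3, at 5.28, 1.76 and 19.6 CPM in TAC, and at 22.5, 1.63 and 0.720 CPM in KO-TAC. All loaded hearts were above all control hearts. Per 1000 Nppa reads, Gm13054 had 3.13, 1.29 and 2.30 reads in control, 4.24, 4.57 and 17.5 in TAC, and 17.3, 2.202 and 2.31 in KO-TAC replicates 1, 2 and 3. TAC replicate 3 and KO-TAC replicate 1 stood apart. The fold of KO-TAC over control was 30.5 with KO-TAC replicate 1 and 4.33 without it (edgeR adjusted p = 0.81 and 1). The fold of TAC over control was 32.7 (edgeR adjusted p = 0.14, DESeq2 0.0085, 0.0085 to 0.40 over 21 alternatives) and 12.8 without TAC replicate 3. The library kit keeps strand, but the strand setting of the counting was not stated, so reads of Nppa and of its antisense partner may not be separable.

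**Figure D5:**
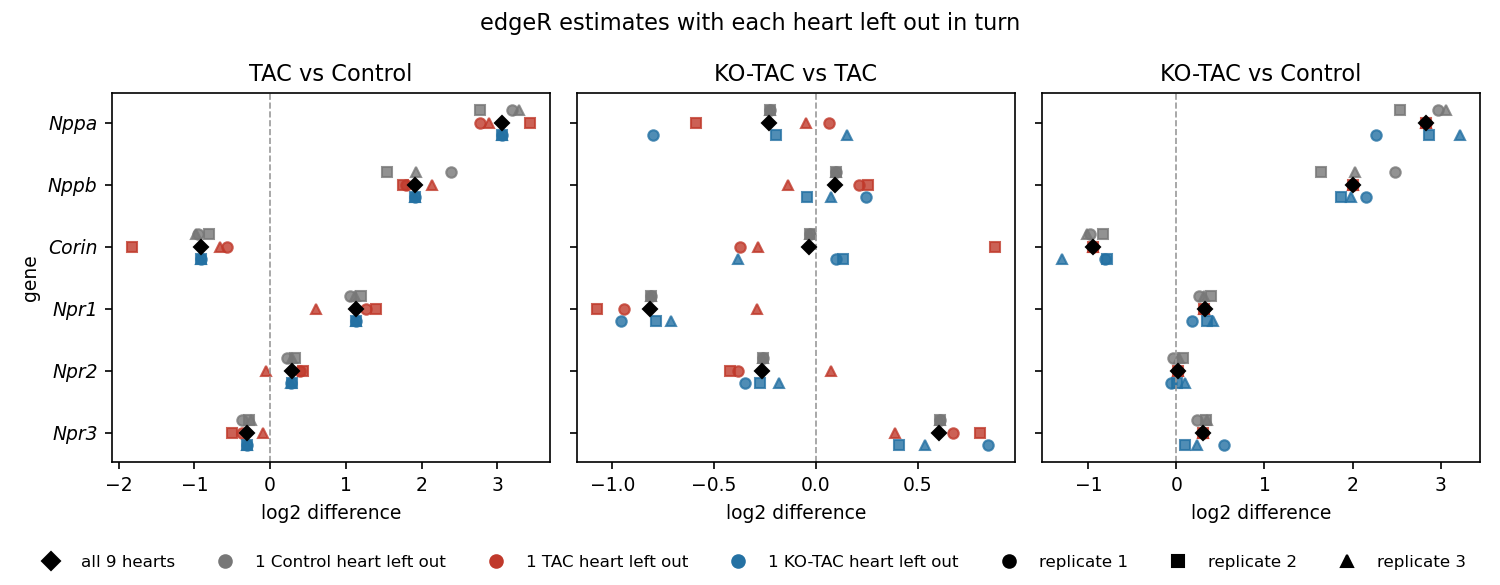
Log2 difference of each tested member when each of the 9 hearts is left out in turn, with the estimate from 9 hearts as a black diamond (axis ranges differ between panels). In TAC against control Nppa and Nppb stay between 1.54 and 3.43, while Corin moves to -1.82 without TAC replicate 2. In KO-TAC against TAC, Nppa, Nppb, Corin and Npr2 fall on both sides of 0.

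For each member the 3 genes of highest Pearson r of log2 CPM over the 9 libraries were listed among 12297 genes at 1 CPM or more, as a description of genes chosen for this likeness. Near Nppa were Angptl7 (r = 0.986), an angiopoietin-like secreted protein gene, and Rbm17 (0.981), a splicing factor gene. Angptl7 was at 0.644 to 1.4 CPM in control hearts, 5.69 to 46.5 CPM under TAC and 3.82 to 26.8 CPM under KO-TAC. Nearest Nppb were Thrsp (0.976), Ankrd23 (0.973), a stretch-associated ankyrin repeat gene of muscle, and Myot (0.957), a sarcomeric Z-disc gene. Ankrd23 was at 377, 153 and 321 CPM in control replicates 1, 2 and 3, and at 389 to 897 CPM in loaded hearts, and thus shared the low value of Nppb in control replicate 2.

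Nearest Npr1 were Nckap5l (r = 0.997), Atp13a1 (0.994) and Acvrl1 (0.992), the last an endothelial receptor gene of the BMP family at 24.1 to 27.7 CPM in control and 98.3 CPM in TAC replicate 3. Nearest Npr2 were Mcm3ap (0.986), Trim11 (0.986) and Dgcr8 (0.981), and nearest Npr3 were Fgfrl1 (0.973), Degs1 (0.955) and Snap47 (0.954). Nearest Corin were Ubr2 (0.995), a ubiquitin ligase gene, Map7 (0.978) and Ubfd1 (0.978). No member was among the 3 nearest genes of another member. The 9 libraries fall into 3 groups, and the values share their scaling factors and the far-off TAC replicate 3.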

How the data were processed

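Trizol-extracted total RNA went into strand-keeping NEBNext libraries, per the labels' protocols. The authors deposited raw counts per gene symbol for 9 libraries, and all 9 were used. The submitters' processing notes name GRCm38 (mm10), the aligner HISAT2 2.2.1, read trimming with Trim Galore 0.6.10, StringTie 2.2.1, SAMtools 1.15 and DESeq2 1.42.0. No source used here gives the counting step, its annotation or its strand setting.

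Where rows repeat a symbol, the row with the largest total was taken. The main test was edgeR 4.0.16 in R 4.3.3 (glmQLFit and glmQLFTest, two-sided) on all 9 libraries, with TMM factors and group as the single term, for genes kept by filterByExpr at a minimum count of 10. Benjamini-Hochberg adjustment covered 19051 genes, and 0.05 was the threshold. SE is the size of the log2 difference over the square root of F, and 95% intervals use the fit's degrees of freedom. Log2 CPM had a prior count of 2. The code was tested on simulated data. Lengths and positions are GENCODE's for GRCm38. No 2 libraries of a group were as alike as repeats of a single library would be (lowest chi-square per degree of freedom 21.8). Irag1 was matched as Mrvi1.

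The members and lists were chosen with earlier results of these data known. Genes named are the 7 members, of each pathway list up to 4 with the smallest p, of each marker list up to 2 of the most abundant, the 3 genes nearest each member, and Myc, except that some genes under this rule are not reported here. Chosen after their values were seen were Gm13054, Sln, Myl7, Bmp10, Nr2f2, Myl4, Aqp1, Atp2a2, Ostn and all other list genes outside that rule. The 21 alternatives covered scaling, tool (DESeq2; limma 3.58.1), filter, the samples fitted, the replicate block and each heart left out.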

Additional observations from a re-analysis of the deposited data

How the results depend on the processing

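Of 378 alternative values of the 18 member differences, 342 kept their direction and their side of the threshold, 16 passed it and 20 turned sign. The number of members called in TAC against control was 0 with edgeR, 3 with DESeq2, 4 with limma-voom with quality weights and 0 to 4 with a heart left out. In KO-TAC against TAC it was 0 under each of the 21 alternatives. In KO-TAC against control it was 2 with DESeq2, 3 with limma-voom and 0 in the others. Over all genes, 0 were called in each comparison by edgeR. DESeq2 called 1491, 185 and 80 and limma-voom 7230, 996 and 991 in TAC against control, KO-TAC against TAC and KO-TAC against control (38%, 5.23% and 5.2% of genes for limma-voom). Leaving out a heart gave 0 to 5477, 0 to 13 and 0 to 4, the highest counts of the first 2 without TAC replicate 2. In KO-TAC against control 2 were called with no low-count filter and 30 in a fit to those groups alone. Library totals in place of TMM moved the median of all genes by 0.26 in TAC against control, and muscle-list factors by 1.41, -0.99 and 0.42 in the 3 comparisons.

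Signs turned as follows, on the log2 scale. With muscle-list factors, TAC against control became 0.86 for Npr3 and 0.060 for Corin, and KO-TAC against TAC -0.69 for Nppb and -0.22 for Npr3. Corin in KO-TAC against TAC became 0.026 with library totals, 0.72 with limma-voom, 0.18 with the replicate block, and with a heart left out ranged from -0.38 to 0.88 (0.10 and 0.13 without KO-TAC replicates 1 and 2). With a heart left out, the ranges in KO-TAC against TAC were -0.80 to 0.15 for Nppa, -0.14 to 0.25 for Nppb, -0.42 to 0.076 for Npr2 and -2.91 to 1.24 for Gm13054, and in TAC against control -0.060 to 0.44 for Npr2. Npr2 in KO-TAC against control was -0.0075 with limma-voom, -0.010 without mitochondrial genes and -0.067 to 0.10 with a heart left out. The cause was not tested. The replicate numbers of the titles were not found to pair the hearts (the column names number the TAC hearts differently, and that pairing was not examined): 2 of 9 same-numbered pairs had deviations correlated above 0.1 (-0.25 to 0.12) and 2 of 9 libraries correlated best with their own number, and with the replicate block 0 members were called in each comparison. By the longest transcript in place of merged exons, the mean level was 17.3 RPKM in place of 13.6 for Npr2 and 2.27 in place of 1.67 for Npr3. By Spearman's rho, 1 of the 3 nearest genes stayed among the nearest for Nppa, Npr1, Npr3 and Corin and 0 for Nppb and Npr2. Depth left Nppc, at 0 to 3 reads, outside every comparison.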
